A study of Rattus norvegicus with 23 samples.

Results

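Klhl24, Txnip and 7 further genes that are tied to fasting through FOXO transcription factors or that were high in the fasted area postrema with them were followed across 5 groups of rats. The 9 genes are Klhl24, Tcp11l2, Txnip, Irs2, Foxo1, Foxo3, Pdk4, Ddit4 and Mettl7a, of 14217 genes named on the array. Their members were all probe sets whose only gene symbol in the platform annotation is one of these names, which gave 16 of 31099 probe sets. The genes were chosen by their signal in fasted against control rats in these same arrays, so that the fasted values are given as a description, with sizes and errors and without a test. Of the 16 probe sets, 12 passed a filter on low signal, and 4 did not (2 of Foxo1 and 2 of Foxo3). Of the genes, 5 (Tcp11l2, Txnip, Irs2, Ddit4 and Mettl7a) have 1 probe set each.

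The area postrema is a small sensory organ in the hindbrain whose leaky vessels let its neurons sample the blood. It was taken from male rats and measured on 23 Affymetrix Rat Genome 230 2.0 arrays, each of which holds RNA pooled from 5 animals. Sprague Dawley rats, an outbred stock aged 10 to 12 weeks, were untreated controls (4 arrays), were deprived of food for 48 h (fasted, 5 arrays) or were dehydrated for 72 h (4 arrays). Spontaneously hypertensive rats (SHR, 5 arrays) and Wistar Kyoto rats (WKY, 5 arrays), the usual normotensive partner strain, were 10 to 13 weeks old and have no treatment in their labels. The labels of the SHR and WKY arrays name a different labelling reagent from those of the Sprague Dawley arrays, so that strain and labelling cannot be told apart between the 2 sets, and each comparison was fitted within 1 set.

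In fed animals insulin signals through receptor substrates such as IRS2 to the kinase AKT, which keeps FOXO1 and FOXO3 out of the nucleus. When insulin falls, FOXO proteins enter the nucleus and raise genes that spare glucose, slow growth and restore insulin sensitivity. PDK4 holds glucose carbon back from mitochondrial oxidation by inhibiting pyruvate dehydrogenase, DDIT4 restrains the growth kinase complex mTORC1, and TXNIP, an alpha-arrestin, inhibits thioredoxin and lowers glucose uptake.

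The 1 probe set of Klhl24 named 1383300_at had a 1.67-fold higher signal in fasted than in control rats, Mettl7a a 1.38-fold, Tcp11l2 a 1.28-fold and Txnip a 1.26-fold higher signal. The other 2 probe sets of Klhl24 differed by at most 0.078 on the log2 scale, and Ddit4 by -0.051. After dehydration no member passed the test. The lowest values of Ddit4 and of both Pdk4 probe sets in the Sprague Dawley rats were those of dehydrated arrays. Between the strains, Mettl7a was 1.76-fold higher in SHR than in WKY, and no other member passed the test.

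The signal is a linear intensity that the authors scaled to the same trimmed mean of 100 in every array, with array medians of 39.81 to 44.48. Levels of different probe sets are not compared with each other, since each has its own response. Differences are of log2(signal + 16), and folds are taken from them, which makes them too small where the signal is low. Within a group, arrays correlated with the others at a mean r of 0.975 to 0.984 over probe sets. RNA quality was read from the Gapdh controls, where the log2 signal at the 3' end minus that at the 5' end was 0.178 to 0.258 in fasted, 0.209 to 0.571 in control, 0.214 to 0.680 in dehydrated, 0.041 to 0.405 in SHR and 0.031 to 0.206 in WKY arrays. Of 11 markers of area postrema neurons 8 were on the array and 7 passed the filter (Calcr, Ramp3, Glp1r, Casr, Cartpt, Th and Dbh), while Slc6a2 did not. Their summed signal was 3208 to 3722 in control, 2749 to 3700 in fasted and 2336 to 3206 in dehydrated arrays. Dehydrated and control arrays thus did not overlap, but only narrowly (3206 against 3208). The sum was 2759 to 3314 in SHR and 2298 to 2677 in WKY. Most of it was Cartpt, with means of 2420 in control, 1790 in dehydrated, 2030 in SHR and 1450 in WKY arrays. In dehydrated against control arrays, Th and Dbh were also lower, Casr and Glp1r were higher, and Calcr and Ramp3 were nearly level. In SHR against WKY, Calcr, Ramp3 and Casr were also higher, Dbh was lower, and Glp1r and Th were nearly level. Markers of the choroid plexus, an epithelium next to the area postrema, differed most between arrays. Of 8 such genes, 6 were on the array and 4 passed the filter. Their sum was above 5000 in 5 Sprague Dawley arrays (9996 in control 3, 11078 in fasted 4, and 5074, 7022 and 12163 in dehydrated 1, 2 and 3) and 1454 to 2438 in the other 8. In SHR it was 1246 to 1384 and in WKY 817 to 1017. In tissue RNA of this kind, fewer cells of a type and less RNA per cell cannot be told apart.

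**Figure D1:**
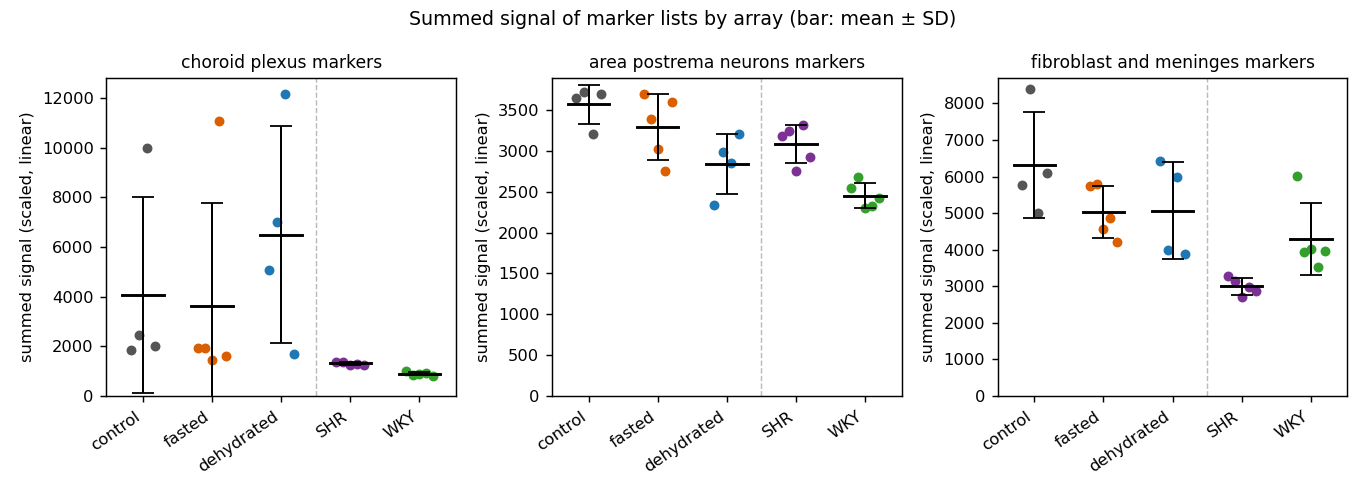
Summed linear signal of 3 marker lists (choroid plexus, area postrema neurons, and fibroblast and meninges) by array in the 5 groups, with bars at the mean ± SD and a dashed line between the 2 sets of arrays; a bar that would pass below 0 is clipped there. Control 3, fasted 4 and dehydrated 1 to 3 stand above 5000 for the choroid plexus list.

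FOXO1 and FOXO3 are the transcription factors of the group. Foxo3 was measured by probe set 1376593_at, with a signal of 276.3 to 313.5 in control, 308.3 to 345.4 in fasted and 308.1 to 330.0 in dehydrated arrays. The fasted and dehydrated arrays overlapped the upper part of the control range. The fasted minus control difference was 0.11 ± 0.068 (SE) on the log2 scale, and the dehydrated minus control difference was 0.088 (95% interval -0.060 to 0.24, adjusted p = 0.658 by limma). Foxo1 probe set 1376779_at gave a dim signal of 32.6 to 48.6 in control, 37.9 to 57.7 in fasted and 35.2 to 56.7 in dehydrated arrays. Control 2 stood above the other 3 control arrays, which lay between 32.6 and 33.7. Its fasted minus control difference was 0.23 ± 0.139 (SE), and the dehydrated minus control difference was 0.20 (95% interval -0.11 to 0.50, adjusted p = 0.623 by limma). The 4 probe sets left out by the filter (1375688_at and 1377502_at of Foxo1, 1376210_at and 1376229_at of Foxo3) had group means of 1.7 to 8.0, so that these 2 genes were read through 1 probe set each.

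IRS2 carries the insulin signal from the receptor to AKT and is itself a known FOXO target. Irs2 gave 94.8 to 130.5 in control, 116.4 to 146.0 in fasted, 105.0 to 144.0 in dehydrated, 108.2 to 140.6 in SHR and 113.8 to 148.6 in WKY arrays. All 5 ranges overlapped. Fasted minus control was 0.11 ± 0.107 (SE), and dehydrated minus control was 0.020 (95% interval -0.22 to 0.26, adjusted p = 0.967 by limma).

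KLHL24 is a substrate adaptor of the Cullin 3 ubiquitin ligase and an interaction partner of kainate receptors. At probe set 1383300_at, Klhl24 had a signal of 70.2, 71.4, 85.0 and 70.1 in the 4 control arrays. The 5 fasted arrays gave 127.5, 117.8, 128.9, 154.0 and 145.6. The 4 dehydrated arrays gave 76.8, 78.1, 71.2 and 62.9. Every fasted array lay above every other Sprague Dawley array, and the highest control array was control 3. In the SHR arrays the signal was 70.6, 85.6, 89.4, 72.1 and 64.4. In the WKY arrays it was 87.3, 80.2, 83.0, 132.9 and 88.4, so that WKY 4 alone reached the fasted range. The means were 74.2 ± 7.2 in control, 134.8 ± 14.7 in fasted, 72.3 ± 6.9 in dehydrated, 76.4 ± 10.6 in SHR and 94.4 ± 21.8 in WKY arrays (SD, n = 4, 5, 4, 5 and 5). From low to high the order of means was dehydrated, control, SHR, WKY and fasted, and each neighbouring pair of ranges overlapped. The fasted minus control difference was 0.74 ± 0.099 (SE, 95% interval 0.53 to 0.95), and it was 0.75 without the 5 arrays of high choroid plexus signal. Dehydrated minus fasted was -0.77 ± 0.099 (SE), and it shares the fasted arrays with the values that chose the gene. Dehydrated minus control was -0.031 (95% interval -0.25 to 0.19, adjusted p = 0.941 by limma).

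The other Klhl24 probe sets did not show this pattern. Probe set 1383110_at gave 154.7, 164.4, 101.6 and 167.8 in control arrays and 122.9, 144.0, 172.7, 168.3 and 165.5 in fasted arrays. Both groups spread over most of the same range, with control 3 as the lowest array. In dehydrated arrays it gave 150.0 to 184.9, in SHR 171.4 to 223.4 and in WKY 161.3 to 190.4. Probe set 1386611_at gave 70.8, 84.1, 97.4 and 76.2 in control and 67.4, 78.6, 83.8, 85.2 and 76.7 in fasted arrays. Here control 3 was the highest control array, and the fasted arrays lay inside or below the control range. In dehydrated arrays it gave 66.2 to 94.4, in SHR 85.2 to 90.9 and in WKY 70.3 to 102.2. The fasted minus control differences were 0.078 ± 0.122 (SE, 95% interval -0.18 to 0.33) at 1383110_at and -0.053 ± 0.109 (SE, 95% interval -0.28 to 0.18) at 1386611_at. Dehydrated minus control was 0.17 (adjusted p = 0.617 by limma) at 1383110_at and -0.077 (adjusted p = 0.838) at 1386611_at. Where in the Klhl24 transcripts each probe set lies was not analysed here.

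**Figure D2:**
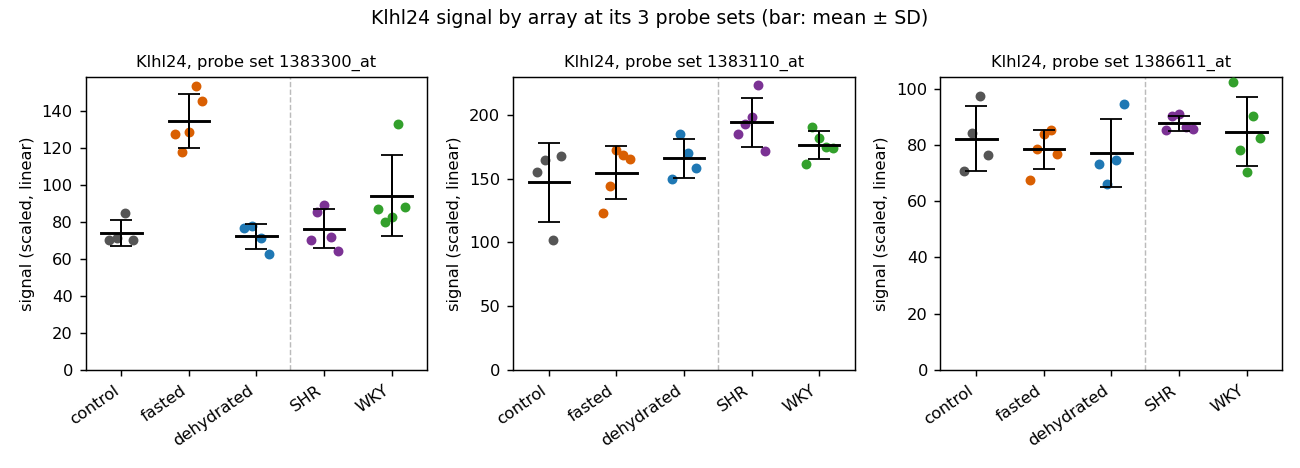
Linear signal of the 3 Klhl24 probe sets by array in the 5 groups, with bars at the mean ± SD and a dashed line between the Sprague Dawley and the SHR and WKY arrays. At 1383300_at the 5 fasted arrays (117.8 to 154.0) stand above all control and dehydrated arrays (62.9 to 85.0), and at the other probe sets the control, fasted and dehydrated arrays overlap.

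The start of Klhl24 is shown because its 1383300_at signal set the fasted arrays apart and FOXO proteins bind short DNA motifs. RefSeq promoter windows of the assembly GRCr8 (250 bases before to 50 after the start) were found for 5 of the 9 genes, Foxo1, Pdk4, Mettl7a, Klhl24 and Ddit4. Both strands were searched for the FOXO core GTAAACA and for the insulin response core TGTTTTG, which do not overlap each other in these windows. No member window held GTAAACA, against 3.78% of all 33469 windows of this length. TGTTTTG was found in 1 of the 5, that of Klhl24, starting 18 bases before the start used for its window, against 6.28% of all windows. The match lies inside the annotated span of the gene, which reaches further upstream than that start. The E-box CACGTG (6.42% of all windows) and the glucocorticoid receptor motif AGAACA (20.7%) were in none of the 5. A match is a description of letters, not a binding site, and the absence of a match says only that these letters are not in the window. Klhl24 lies on the minus strand, with the first stretch at chr11:94382086-94382300 and the 30 bases around TGTTTTG at chr11:94382051-94382080, both printed 5′ to 3′ on the gene's strand. Capitals mark TGTTTTG and, as ATTGG, the CCAAT box on the opposite strand.
Klhl24 upstream: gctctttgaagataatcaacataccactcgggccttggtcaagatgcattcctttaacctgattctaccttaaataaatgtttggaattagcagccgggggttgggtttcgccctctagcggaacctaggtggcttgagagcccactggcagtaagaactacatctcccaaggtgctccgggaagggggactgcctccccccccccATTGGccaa
Klhl24 at the core: ggtgacgctaagTGTTTTGgcccgacggtc
The CCAAT box, a common promoter element, was added after the letters were seen. It was in all 5 member windows and in 37.5% of all windows.

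TXNIP links glucose and redox state. In the 4 control arrays Txnip (1371131_a_at) had a signal of 431.4, 305.6, 322.6 and 344.6. The 5 fasted arrays gave 364.0, 442.5, 489.1, 456.1 and 478.9, and the 4 dehydrated arrays 336.4, 259.7, 248.4 and 345.8. Control 1 lay inside the fasted range and the other 3 control arrays below it, while the dehydrated arrays overlapped the control arrays and lay below every fasted array. The means were 351.0 ± 55.9, 446.1 ± 49.5 and 297.6 ± 50.6 (SD, n = 4, 5 and 4). Fasted minus control was 0.34 ± 0.112 (SE, 95% interval 0.10 to 0.57), and dehydrated minus fasted was -0.57 ± 0.112 (SE), or -0.34 without the 5 arrays of high choroid plexus signal. Dehydrated minus control was -0.23 (95% interval -0.48 to 0.018, adjusted p = 0.463 by limma), and it was -0.044 without the 5 arrays of high choroid plexus signal, which leaves 1 dehydrated array, and -0.17 with the choroid plexus signal as a covariate.

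METTL7A is a methyltransferase-like protein of the endoplasmic reticulum and lipid droplets, and TCP11L2 is little characterised. Mettl7a (1371479_at) gave 260.0, 198.9, 212.9 and 232.8 in control, and 293.0, 292.5, 347.2, 294.5 and 360.8 in fasted arrays. All fasted arrays were above all control arrays. The dehydrated arrays gave 242.8, 272.4, 227.7 and 258.2, which reached slightly above the control range and stayed below the fasted one. For Mettl7a, fasted minus control was 0.46 ± 0.089 (SE), dehydrated minus fasted was -0.32 ± 0.089 (SE), and dehydrated minus control was 0.14 (95% interval -0.056 to 0.34, adjusted p = 0.579 by limma). Tcp11l2 (1388471_at) gave 423.8, 367.9, 362.5 and 367.4 in control, and 461.3, 493.8, 523.2, 493.9 and 486.3 in fasted arrays. Again every fasted array was above every control array. The dehydrated arrays gave 418.7, 368.5, 359.5 and 483.9, with dehydrated 4 inside the fasted range, dehydrated 1 and 2 inside the control range and dehydrated 3 just below it. Its fasted minus control difference was 0.36 ± 0.082 (SE), and dehydrated minus control was 0.089 (95% interval -0.091 to 0.27, adjusted p = 0.725 by limma).

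**Figure D3:**
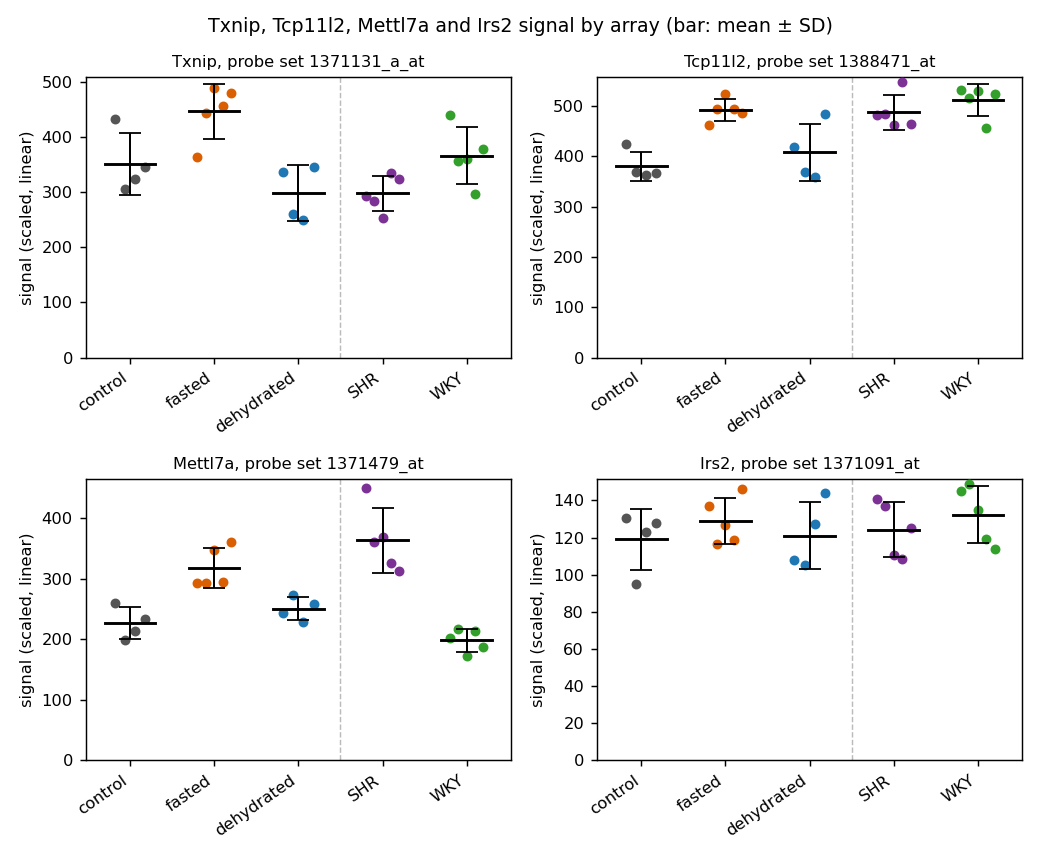
Linear signal of Txnip, Tcp11l2, Mettl7a and Irs2 by array in the 5 groups, with bars at the mean ± SD and a dashed line between the 2 sets of arrays. Mettl7a separates SHR (312.4 to 450.4) from WKY (171.6 to 217.1) and fasted (292.5 to 360.8) from control (198.9 to 260.0).

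DDIT4 and PDK4 are induced by FOXO and by glucocorticoids in several tissues. Ddit4 (1368025_at) gave 450.5, 427.2, 448.5 and 484.3 in control and 433.6, 415.4, 518.6, 373.1 and 450.6 in fasted arrays. The fasted arrays lay on both sides of the control range. The 4 dehydrated arrays gave 335.4, 285.3, 370.3 and 386.3, all below the lowest control array. The means were 452.6 ± 23.6 in control, 438.2 ± 53.4 in fasted and 344.3 ± 44.7 in dehydrated arrays (SD, n = 4, 5 and 4). Fasted minus control was -0.051 ± 0.092 (SE). Dehydrated minus control was -0.39 ± 0.097 (SE, 95% interval -0.59 to -0.19), which did not pass the threshold (adjusted p = 0.121 by limma). It was -0.34 with the choroid plexus signal as a covariate and -0.22 without the 5 arrays of high choroid plexus signal, which leaves 1 dehydrated array.

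Pdk4 was read by 2 probe sets. The one named 1378074_at gave 424.4, 427.1, 405.6 and 416.7 in control and 447.3, 479.6, 520.9, 429.0 and 440.7 in fasted arrays. The fasted arrays began just above the control range, at 429.0 against 427.1. The dehydrated arrays gave 254.9, 312.5, 366.1 and 405.2, of which the highest lay just under the lowest control array. Fasted minus control was 0.14 ± 0.098 (SE), and dehydrated minus control was -0.33 ± 0.103 (SE, 95% interval -0.54 to -0.11, adjusted p = 0.21 by limma). At the dimmer 1369150_at the control arrays gave 40.2 to 59.6, the fasted arrays 42.3 to 74.5 and the dehydrated arrays 22.7 to 55.1, and all 3 ranges overlapped. There, fasted minus control was 0.088 ± 0.163 (SE) and dehydrated minus control -0.36 (95% interval -0.71 to -0.00068, adjusted p = 0.427 by limma). Without the 5 arrays of high choroid plexus signal, dehydrated minus control was -0.059 at 1378074_at and turned to 0.10 at 1369150_at. That fit leaves 1 dehydrated array, dehydrated 4, which had the highest value of its group at both probe sets. The 3 dehydrated arrays of high choroid plexus signal are the 3 with the lower values at both Pdk4 probe sets. These arrays also gave the lower values of the dehydrated group for Ddit4 and Txnip, narrowly so for Txnip in dehydrated 1 (336.4 against 345.8 in dehydrated 4). Among the other arrays of high choroid plexus signal, fasted 4 was the lowest fasted array at both Pdk4 probe sets and for Ddit4, but not for Txnip. Control 3 was the lowest control array at 1378074_at, the highest at 1369150_at and neither for Ddit4 and Txnip. With the choroid plexus signal as a covariate, the Pdk4 dehydrated minus control differences were -0.29 at 1378074_at and -0.28 at 1369150_at.

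**Figure D4:**
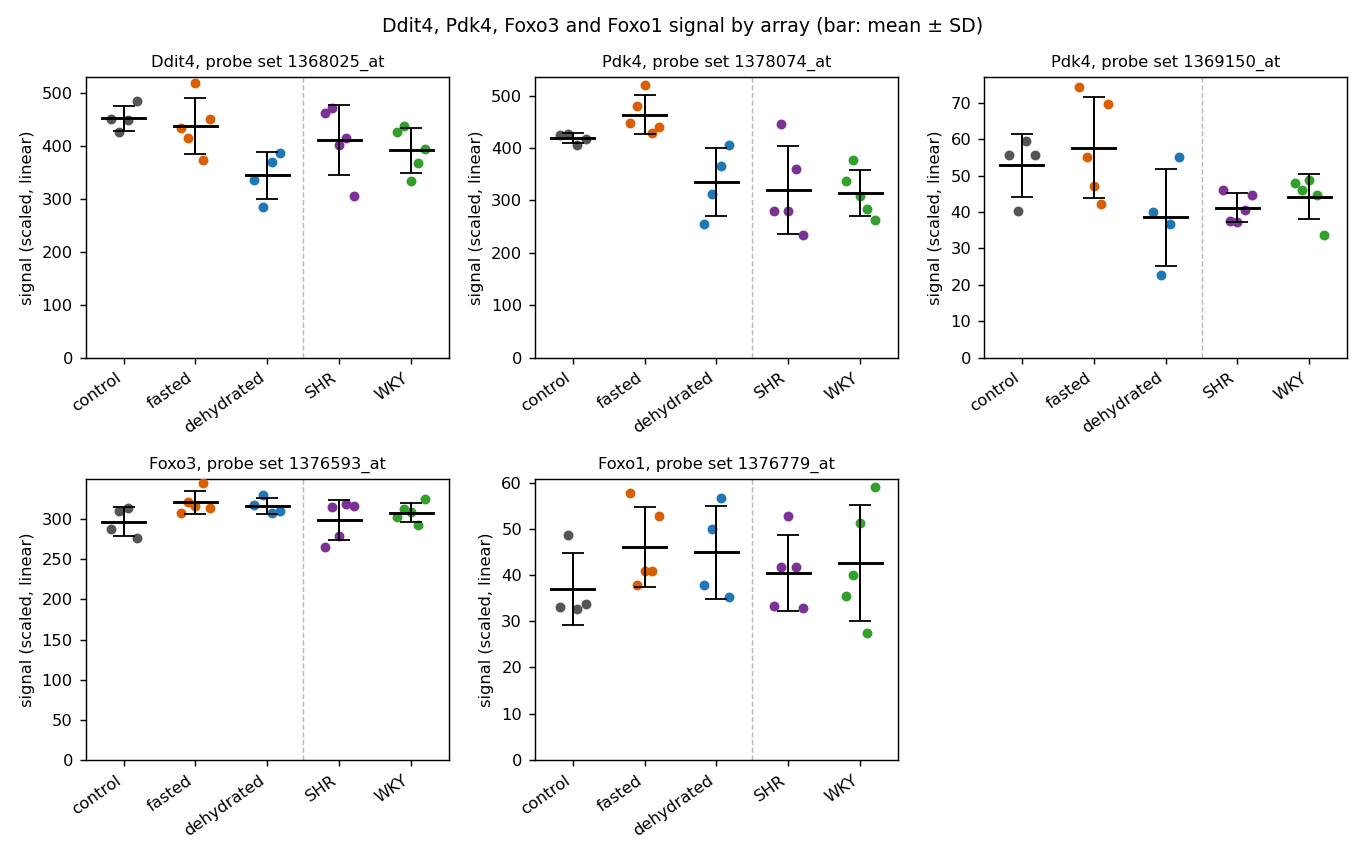
Linear signal of Ddit4, both Pdk4 probe sets, Foxo3 and Foxo1 by array in the 5 groups, with bars at the mean ± SD and a dashed line between the 2 sets of arrays. The dehydrated arrays lie below the control arrays for Ddit4 (285.3 to 386.3 against 427.2 to 484.3) and, narrowly, for Pdk4 1378074_at.

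The upstream stretches of Pdk4 and Ddit4 are shown because both genes had their lowest Sprague Dawley values in dehydrated arrays. They are from RefSeq on GRCr8, on the minus strand at chr4:34568330-34568579 and chr20:28437038-28437287, printed 5′ to 3′ on the gene's strand, with CCAAT boxes of the opposite strand in capitals as ATTGG. The box begins 153 bases before the start in Pdk4, and 121 and 88 bases before it in Ddit4.
Pdk4 upstream: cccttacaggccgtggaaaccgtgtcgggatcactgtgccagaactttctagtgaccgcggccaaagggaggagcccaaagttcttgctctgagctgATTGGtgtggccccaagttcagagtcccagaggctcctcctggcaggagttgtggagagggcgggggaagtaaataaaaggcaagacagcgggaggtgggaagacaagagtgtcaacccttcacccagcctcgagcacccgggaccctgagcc
Ddit4 upstream: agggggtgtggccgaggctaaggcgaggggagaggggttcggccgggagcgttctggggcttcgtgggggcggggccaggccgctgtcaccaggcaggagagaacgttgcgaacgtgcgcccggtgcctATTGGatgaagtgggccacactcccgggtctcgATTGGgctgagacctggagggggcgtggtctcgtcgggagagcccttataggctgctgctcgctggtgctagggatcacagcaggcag
Neither stretch holds either FOXO core, the E-box or the glucocorticoid receptor motif as spelled above.

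Over the 12 probe sets kept by the filter, 10 had a positive fasted minus control difference, with a median of 0.12 against 0.0031 over all 18625 probe sets tested. In 4 of the 12 every fasted array lay above every control array (Klhl24 1383300_at, Tcp11l2, Pdk4 1378074_at and Mettl7a), against 1.05% of all probe sets. The comparison as a whole called 4 probe sets, or 0.0215% of those tested, at an adjusted p below 0.05. These counts describe the values by which the genes were chosen. By size, Txnip at 0.34 was the smallest of the 4 leading members and Foxo1 at 0.23 came next. In dehydrated minus fasted, which shares the fasted arrays, every dehydrated array lay below every fasted array for 4 of the 12 (Klhl24 1383300_at, Txnip, Pdk4 1378074_at and Mettl7a), against 1.91% of all, and the comparison called 6 probe sets, or 0.0322%.

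Dehydrated minus control was tested, although it shares the 4 control arrays with the values that chose the genes. By limma 0 of the 12 passed an adjusted p of 0.05, against 0.166% of all probe sets, of which 31 passed. At an unadjusted p below 0.05 there were 3 of 12 (Ddit4 and both Pdk4 probe sets), all lower, against 11.7% of all in either direction and 6.14% lower. The groups did not overlap for 2 of the 12, Ddit4 and Pdk4 1378074_at, both lower, against 3.37% of all. The median over the 12 was -0.0053, beside -0.0095 over all probe sets, and 6 of the 12 were positive.

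**Figure D5:**
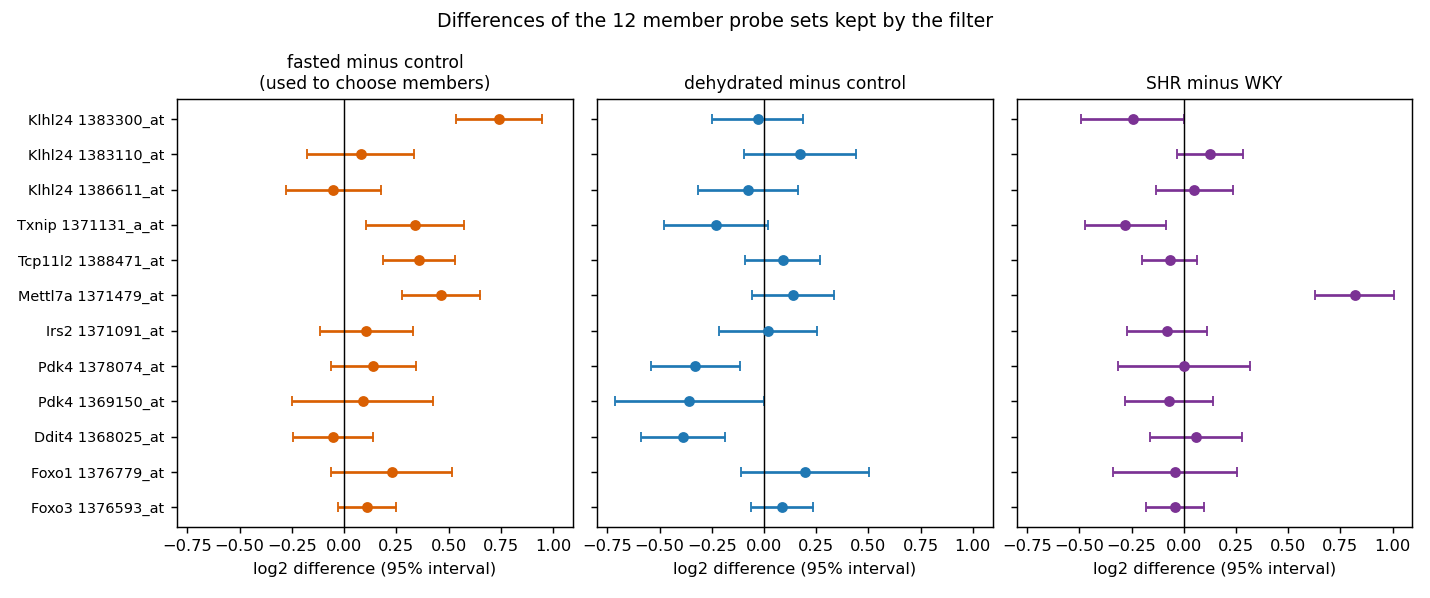
Log2 differences with 95% intervals for the 12 member probe sets kept by the filter in fasted minus control, dehydrated minus control and SHR minus WKY. Klhl24 1383300_at leads the first panel at 0.74, Ddit4 is lowest in the second at -0.39, and Mettl7a stands at 0.82 in the third.

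SHR and WKY were not used to choose the genes. Mettl7a gave 450.4, 360.2, 369.1, 325.8 and 312.4 in SHR and 201.6, 217.1, 171.6, 213.4 and 187.3 in WKY. Every SHR array lay above every WKY array, and the SHR mean of 363.6 ± 53.9 was the highest of the 5 groups, beside 317.6 ± 33.6 in fasted Sprague Dawley rats (SD, n = 5 each), with overlapping ranges. The difference was 0.82 ± 0.090 (SE, 95% interval 0.63 to 1.01), or 1.76-fold, and passed the test (adjusted p = 1.25e-05 by limma). The summed markers of fibroblasts and meninges were 2699 to 3276 in SHR and 3526 to 6009 in WKY. Those of microglia and macrophages were 1279 to 1759 and 1772 to 2052. Neither pair overlapped, as for the choroid plexus and area postrema neuron lists above. The higher choroid plexus sum in SHR came from Enpp2, with means of 1110 in SHR and 660 in WKY. The other choroid plexus markers that passed the filter had lower means in SHR: Ttr (78.8 against 103), Folr1 (43.4 against 49.8) and F5 (44.1 against 65.1). The part of the listed cell types in the Mettl7a difference was not tested.

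Txnip was lower in SHR, with 293.4, 284.0, 253.7, 333.9 and 322.6 against 439.5, 356.3, 359.2, 296.6 and 377.7 in WKY. WKY 4 lay inside the SHR range and the other 4 WKY arrays above it. The difference was -0.28 ± 0.091 (SE, 95% interval -0.47 to -0.087) and did not pass the threshold (adjusted p = 0.098 by limma). It did so without WKY 4 (adjusted p = 0.025), and over all 19 alternatives the adjusted p ran from 0.025 to 0.236. WKY 4 was also the array with the highest Klhl24 1383300_at signal of its group, and there SHR minus WKY was -0.24 (95% interval -0.49 to 0.0021, adjusted p = 0.296 by limma). The other 2 Klhl24 probe sets had differences of 0.13 (adjusted p = 0.43) and 0.050 (adjusted p = 0.84).

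The remaining members differed by less between the strains. Ddit4 gave 305.3 to 472.3 in SHR and 333.4 to 438.4 in WKY, with a difference of 0.058 (95% interval -0.16 to 0.28). Pdk4 1378074_at spread most, over 234.5 to 445.1 in SHR and 263.5 to 376.7 in WKY, with a difference of 0.0017 (95% interval -0.31 to 0.32). Tcp11l2 gave 461.9 to 547.6 in SHR and 456.4 to 532.4 in WKY, with a difference of -0.067 (95% interval -0.20 to 0.066). The differences were -0.070 at Pdk4 1369150_at, -0.080 for Irs2, -0.041 for Foxo1 and -0.043 for Foxo3. Of the 12 members 1 passed the test, or 8.33%, against 5.06% of all 18625 probe sets, a share of members that rests on 1 gene. At an unadjusted p below 0.05 there were 2 of 12, against 17.2% of all, and the groups did not overlap with SHR higher for 1 of 12, against 3.08%.

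The order of group means differed among members. Fasted arrays had the highest mean for Klhl24 1383300_at, Txnip, Foxo1, Foxo3 and both Pdk4 probe sets. WKY had the highest mean for Tcp11l2 and Irs2, SHR for Mettl7a and for the other Klhl24 probe sets, and control for Ddit4. Neighbours in these orders overlapped in their ranges for every probe set, except Pdk4 1378074_at (dehydrated below control, and control below fasted) and Mettl7a (dehydrated below fasted).

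Other genes of the same pathways were read from lists, with 1 probe set per gene. In dehydrated minus control, 0 of the 124 other genes on the 7 lists passed the test by limma, and 10 had an unadjusted p below 0.05, or 8.06% against 12.2% of all 10408 genes read in the same way. The 23 other genes of insulin to FOXO signalling had a median of 0.0040, and the 39 other FOXO target genes of 0.0030, against -0.017 over all genes. The largest differences there were those of Foxo4 at -0.33 (adjusted p = 0.449 by limma) and Bcl6 at 0.32 (adjusted p = 0.765). The 11 other genes of pyruvate dehydrogenase control had a median of -0.031, led by the kinase Pdk3 at -0.31 (adjusted p = 0.174). Among 19 other genes of mTORC1 restraint and energy sensing the median was -0.063, with the Ddit4 relative Ddit4l at -0.30 (adjusted p = 0.371) and the S6 kinase Rps6kb1 at 0.29 (adjusted p = 0.18). The 16 other glucocorticoid-induced genes had a median of -0.088. Among them the clock gene Per1 stood at 0.61 (adjusted p = 0.424 by limma). Its control signal was uneven, at 35.9 ± 28.1 against 54.2 ± 3.4 in dehydrated arrays (SD). Nfkbia stood at -0.34 (adjusted p = 0.502 by limma). Fkbp5, a chaperone that dampens the glucocorticoid receptor, stood at -0.23 (adjusted p = 0.339 by limma). The 11 other alpha-arrestin, thioredoxin and MondoA genes had a median of -0.065 and the 14 other KLHL24 ligase genes and partners of 0.035.

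In fasted minus control, 27 of 39 other FOXO target genes were positive, with a median of 0.047 against -0.0010 over all genes. This is the comparison by which the members were chosen, and the lists were made with earlier results known. The values are therefore a description, and a FOXO response was not tested. The largest were Bcl6, a transcriptional repressor, at 0.33 ± 0.327 (SE), Cited2, a coactivator partner, at 0.29 ± 0.101 and the leucine sensor Sesn1 at 0.27 ± 0.093. The glucocorticoid-induced genes other than members had a median of -0.023, with Per1 at 0.46 ± 0.269, Nfkbia, an inhibitor of NF-kappa-B, at -0.38 ± 0.180 and Fkbp5 at -0.29 ± 0.089, and the pyruvate dehydrogenase list a median of -0.041.

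Between SHR and WKY, 10 of the 123 other genes on the 7 lists passed the test by limma, or 8.13% against 5.15% of all 10476 genes read in the same way. At an unadjusted p below 0.05 there were 23, or 18.7% against 18.2%. The counts below are given beside these shares, and nothing particular to a list is read from them. In insulin to FOXO signalling 3 of 21 other genes passed, and 6 had an unadjusted p below 0.05. The regulatory subunit of phosphatidylinositol 3-kinase Pik3r1 was lower in SHR at -0.70 ± 0.138 (SE, adjusted p = 0.00463), with a signal of 30.0 ± 10.4 against 57.7 ± 8.7 (SD, n = 5 each). The kinase Stk4, which phosphorylates FOXO proteins, was lower at -0.43 (adjusted p = 0.0108). The coactivator Crebbp was higher at 0.41 (adjusted p = 0.0204), while its other tested probe sets stood at 0.098 and -0.18 and did not pass.

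Of 38 other FOXO target genes, 3 were higher in SHR and 1 lower by the test, and 7 had an unadjusted p below 0.05. Angptl4, an inhibitor of lipoprotein lipase, was higher at 0.79 (adjusted p = 0.000177 by limma), with 183.5 ± 36.6 against 98.4 ± 9.4 (SD, n = 5 each). The acyl-CoA thioesterase Acot1 was higher at 0.63 (adjusted p = 0.00019). Gabarapl1, of the autophagy machinery, was higher at 0.68 (adjusted p = 2.69e-06), but its second probe set went the other way at -0.43 (adjusted p = 0.0592). The matrix protein Ccn2 was lower at -0.59 (adjusted p = 0.00204). The list's other genes had a median of -0.028 against 0.011 over all genes.

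Of 11 other pyruvate dehydrogenase genes, Pdk3 was lower in SHR at -0.29 (adjusted p = 0.0336 by limma), the only one of the 11 with an unadjusted p below 0.05. Its second probe set stood at -0.21 and did not pass (adjusted p = 0.267). No gene of that list passed without the filter, without trend and robust moderation, with the Gapdh ratio as a covariate, or when any 1 of SHR 1, SHR 3, SHR 5, WKY 1, WKY 2 and WKY 5 was left out. Of 17 other glucocorticoid-induced genes, the metallothionein Mt2A was higher at 0.36 (adjusted p = 0.0129) and the phosphatase Dusp1 lower at -0.46 (adjusted p = 0.0114), and 6 of the 17 had an unadjusted p below 0.05. By limma 0 of the 11 other alpha-arrestin, 19 other mTORC1 and 14 other KLHL24 ligase genes passed, and 0, 2 and 2 of them had an unadjusted p below 0.05.

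Over the 13 Sprague Dawley arrays, the genes whose log2 signal was most like that of Klhl24 1383300_at among 10399 genes were Usp11 (Pearson r = 0.84), Myh10 (0.83), Trim35 (0.83), Pknox2 (0.81) and Sstr1 (0.81). Usp11, a deubiquitinase, gave 633.3 ± 23.4 in control, 707.3 ± 15.4 in fasted and 616.1 ± 41.0 in dehydrated arrays. Those most like Txnip were Dhx38 (0.95), Stx5 (0.92), Rlim (0.90), Rab29 (0.87) and Hap1 (0.85). Dhx38, a splicing helicase, gave 92.2 ± 6.8, 103.2 ± 3.2 and 89.1 ± 8.8. These values describe arrays that share 3 groups, and the 2 sets of 5 genes do not share a name.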

How the data were processed

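The 23 arrays are of the Affymetrix type Rat Genome 230 2.0. The deposited values are linear intensity signals, 1 per probe set and array, made by the authors with GCOS 1.2 per the submitters' processing notes; its settings were not stated there. After removal of 2% at each end, the mean was 100 in every array, so the values were used as deposited. The platform annotation gave 1 symbol to 20826 probe sets, several to 436 and none to 9780. Groups came from the sample titles.

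Signals were transformed as log2(signal + 16). The 57 control probe sets and those with a mean below the 40th percentile of the arrays in a fit were left out, which kept 18625. Limma 3.58.1 in R 4.3.3 (lmFit, eBayes with trend and robust, two-sided, Benjamini-Hochberg over all probe sets kept, threshold 0.05) was run on the 13 Sprague Dawley arrays in 1 model and on the 10 SHR and WKY arrays. Each array is a pool, so p-values measure the spread between pools. The pipeline was run on simulated data, the outcome of which is not given here. The simulated noise was independent between probe sets, without array-wide variation such as that of the choroid plexus signal. Intervals are 95%. The number of arrays limits the precision. Control arrays 1 and 2 have a shorter label protocol text than the other Sprague Dawley arrays. Python 3.11.15 with pandas 2.3.3, numpy 2.4.6 and matplotlib 3.10.9 made summaries and plots.

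Every probe set of the 9 genes is reported. From each pathway list the genes past the threshold are named, with up to 3 further genes of large difference, and the 5 genes most like Klhl24 1383300_at and Txnip. The members and lists were chosen with earlier results of these data known. Alternatives were quantile normalization, other pseudocounts and filters, plain eBayes, other sets of arrays, a replicate block, the ratio of 3' to 5' Gapdh signal as a covariate and each array left out. Those on the choroid plexus signal were chosen after seeing the data.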

Additional observations from a re-analysis of the deposited data

Results flagged for a closer look

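Of 80 groups of 4 or 5 arrays (16 probe sets in 5 groups), 9 had 1 array that stood apart from the others by more than Dixon's 95% critical value, where chance gives about 1 in 20. At Klhl24 1383300_at these were control 3, the highest of its group at 84.99, and WKY 4, the highest at 132.9. For Tcp11l2 they were control 1 (highest, 423.8), SHR 4 (highest, 547.6) and WKY 4 (lowest, 456.4). Foxo1 1376779_at had control 2 as the highest at 48.6, and Pdk4 1369150_at had WKY 5 as the lowest at 33.6. At Foxo1 1375688_at, which the filter left out, control 4 (13.25) and fasted 4 (4.31) were the highest.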

How the results depend on the processing

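The Klhl24 1383300_at fasted minus control difference was 0.52 to 0.85 over all alternatives, with 0.52 at a pseudocount of 64 and 0.71 with the replicate block. Mettl7a in SHR minus WKY was 0.70 to 0.89 and passed in all 19 alternatives (adjusted p 1.82e-07 to 0.000188 by limma). Ddit4 in dehydrated minus control was -0.44 to -0.22, with an adjusted p of 0.0861 to 0.999 by limma over 21 alternatives. Probe sets called in dehydrated minus control, 31 as reported, were 15 without the filter, 10 without trend and robust, 74 with all 23 arrays in 1 model, 15 with the replicate block, 2 with control arrays 3 and 4 only, 18 with the choroid plexus covariate, 3 without the 5 arrays of high choroid plexus signal and 9 to 42 with each array left out. In fasted minus control, 4 as reported, they were 2 without the filter, 2 without trend and robust, 0 with control arrays 3 and 4 only, 8 without the 5 arrays and 2 to 6 with each array left out. In dehydrated minus fasted, 6 as reported, they were 3 without trend and robust, 1 with the replicate block, 2 with the Gapdh covariate, 0 without the 5 arrays and 2 to 10 with each array left out. Fewer arrays or genes entered several of these fits, and other causes were not tested. Member probe sets called in SHR minus WKY were 1 to 2 with each array left out, 2 of them without WKY 4, where Txnip passed at -0.35 (range -0.35 to -0.21).

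Signs turned in these cases, except where a difference is said to have kept its sign. All of them are differences that did not pass the test or were not tested. Without the 5 arrays, dehydrated minus control was -0.031 at Klhl24 1383110_at, 0.25 at Klhl24 1386611_at, -0.077 for Foxo1 and 0.10 at Pdk4 1369150_at. This fit leaves 1 dehydrated array, assumed to vary like the others. Irs2 was -0.056 with control arrays 3 and 4 only and -0.072 to 0.077 with each array left out, and Klhl24 1383300_at -0.063 to 0.025. In SHR minus WKY, Pdk4 1378074_at was -0.0048 with quantile normalization and -0.12 to 0.10 with each array left out, Klhl24 1386611_at -0.0034 to 0.11 and Foxo1 -0.14 to 0.055. Over all alternatives, fasted minus control ran from -0.10 to 0.21 at Klhl24 1383110_at, -0.12 to 0.020 at Klhl24 1386611_at, -0.0061 to 0.15 for Irs2, -0.084 to 0.22 at Pdk4 1369150_at and -0.14 to 0.0024 for Ddit4. Dehydrated minus fasted ran from -0.11 to 0.26 at Klhl24 1386611_at, -0.16 to 0.12 for Irs2, -0.29 to 0.048 for Foxo1 and -0.074 to 0.0043 for Foxo3. For Tcp11l2 and Pdk4 it kept its sign but shrank without the 5 arrays. It was then -0.019 for Tcp11l2 against -0.27, and -0.21 at Pdk4 1378074_at against -0.47. At Pdk4 1369150_at it was -0.11 against -0.45. Klhl24 1383300_at also kept its sign, at -0.54 with a pseudocount of 64 against -0.77. Whether the numbers pair the arrays is not known. Deviations of same-numbered arrays correlated at -0.168 to 0.051 over the Sprague Dawley comparisons and at -0.0047 to 0.272 in SHR minus WKY. For SHR 1 (0.153) and SHR 2 (0.272) the closest WKY array was that of the same number. The same held for dehydrated 2, at 0.0493 with control 2 and 0.051 with fasted 2. The replicate block gave 1073 calls in SHR minus WKY against 942 and changed no member's call.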
